A study of Homo sapiens with 12 samples.

Results

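The loss of PRMT5 in LNCaP prostate cancer cells that were not irradiated was examined in 6 of the 12 libraries of the series, all those of the non-irradiated count table. LNCaP is an androgen-responsive human prostate cancer line, and the LNCaP-shPRMT5 cells used here carry a short hairpin RNA against PRMT5 that doxycycline switches on. Knockdown cells received doxycycline at 1 µg/mL every 48 h, control cells received none, and both groups were grown in RPMI1640 medium with fetal bovine serum and received 0 Gy. The 3 knockdown libraries were compared with the 3 control libraries, and libraries with the same replicate number were also compared as pairs. The other 6 libraries repeated both groups with harvest 24 h after 2 Gy. The main model was fitted to all 12 libraries, so these 6 also enter its filter, scaling and estimate of the spread. Apart from that, they are used below only to set the non-irradiated values beside the irradiated ones. The knockdown was made in 1 hairpin line. The hairpin and doxycycline always came together, so their effects cannot be told apart, and no library of doxycycline-treated cells without the hairpin was analysed here. Whether the libraries of a group are separate cultures is not stated in the labels, so p-values measure only how far these samples differ, in part perhaps for technical reasons.

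PRMT5 is the main enzyme that adds symmetric dimethyl marks to arginines. It works in a complex with WDR77, and adaptor proteins such as CLNS1A, RIOK1 and COPRS bring it to its substrates, among them histones and the spliceosomal Sm proteins. In prostate cancer cells it has been linked to transcription of DNA repair genes, and its loss is known for effects on splicing, growth and the p53 pathway.

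The 6 libraries held between 14801939 and 27676809 counts, and the libraries of pair 1 were the shallowest of their groups. A count of 0 still allows up to 3 counts, a limit for counting error only. Those stood for 0.108 to 0.203 CPM (counts per mega-count) of a library's total counts. The other CPM values here are scaled between libraries. All 12 luminal prostate markers were expressed, with a summed level of 8734 to 9466 CPM in controls and 8251 to 8984 CPM in knockdowns. Of the markers of other cell types, 5 of 19 neuroendocrine, 3 of 8 basal epithelial, 6 of 12 fibroblast and 1 of 12 leukocyte genes were high enough to test, and CHGA, INSM1, PTPRC and CD3E had no count in any of the 6 libraries. Replicates of a group all differed by more than sampling noise.

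PRMT5 (ENSG00000100462.15, chromosome 14, 22920511 to 22929585, build GRCh38) stood at 186, 190 and 198 CPM in the controls and at 26.6, 30.8 and 32.8 CPM in the knockdowns. The groups did not overlap, and the knockdowns kept 15.7% of the control mean. By pair the log2 ratio was -2.80, -2.62 and -2.59, and the fitted log2 fold change was -2.67 (SE 0.13, edgeR adjusted p = 2.49e-06). An exact permutation test (2-sided, 3 against 3) reached p = 0.1, the smallest value possible in this design. Another gene covers 27.1% of the exon positions of PRMT5, so part of its count is uncertain.

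Its partners moved little. WDR77, the obligate partner, stood at 48.0, 41.8 and 42.1 CPM in controls and 34.9, 36.1 and 34.7 CPM in knockdowns, without overlap (log2 fold change -0.32, edgeR adjusted p = 0.433, and 0.0181 with the replicate number as a block). The adaptor CLNS1A had a log2 fold change of -0.23 (adjusted p = 0.296, and 0.0160 with the block), RIOK1 of -0.04 and COPRS of -0.18. These adaptors and WDR77 were named for their role, after their values were seen. Among the other arginine methyltransferases PRMT3 had a log2 fold change of -0.38 (adjusted p = 0.0913), PRMT9 of 0.58 (adjusted p = 0.244) and PRMT7 of 0.36 (adjusted p = 0.250), and each of the 3 was called with the block (adjusted p = 0.00197, 0.00272 and 0.00513). In the model of all 12 libraries without the block PRMT5 was the 1 of 15 tested genes of this list called. That model called 1.54% of all tested genes. A fit of the 6 libraries alone also called PRMT3 (adjusted p = 0.0382) and PRMT9 (0.0316). It called 4.03% of the genes tested there higher and 5.22% lower. DESeq2 called 2 genes of the list, beside 1034 of all 17191 tested genes.

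In the edgeR model of all 12 libraries without the block, to which a call refers unless another fit is named, 265 of 17191 tested genes (1.54%) changed at an adjusted p under 0.05, 58 of them higher in the knockdown (0.337%) and 207 lower (1.2%). The lower genes were also the ones with larger changes: 88 of the 207 fell by more than 1 on the log2 scale, with a median of -0.92, while 16 of the 58 rose by more than 1, with a median of 0.75. The median over all tested genes was 0.00. Protein-coding genes made up 188 of the lower and 51 of the higher genes. All 265 had the same sign in every pair, which 55.2% of all tested genes had. Adding the replicate number to the model as a block gave 4776 calls (27.8%), which split into 2349 higher and 2427 lower and took in the 265 with the same sign. The count without the block fell to between 31 and 119 when control replicate 1, 2 or 3 (119, 63 and 48) or knockdown replicate 2 or 3 (31 and 35) was left out, and it was 341 without knockdown replicate 1. Without both libraries of pair 2 or of pair 3 it was 7 and 1, and without those of pair 1 it stayed within 1.5 times of 265. Of the 41 called genes named here other than PRMT5, 9 stayed called whichever of the 6 libraries was left out: RNF14, PTER, GDPD1, SLC18B1, FAM3C, TMEM44, RP4-568C11.4, TMEM167B and LDOC1. Without both libraries of a pair, fewer of the 41 could stay: 20 without pair 1, 2 without pair 2 and 0 without pair 3.

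**Figure D1:**
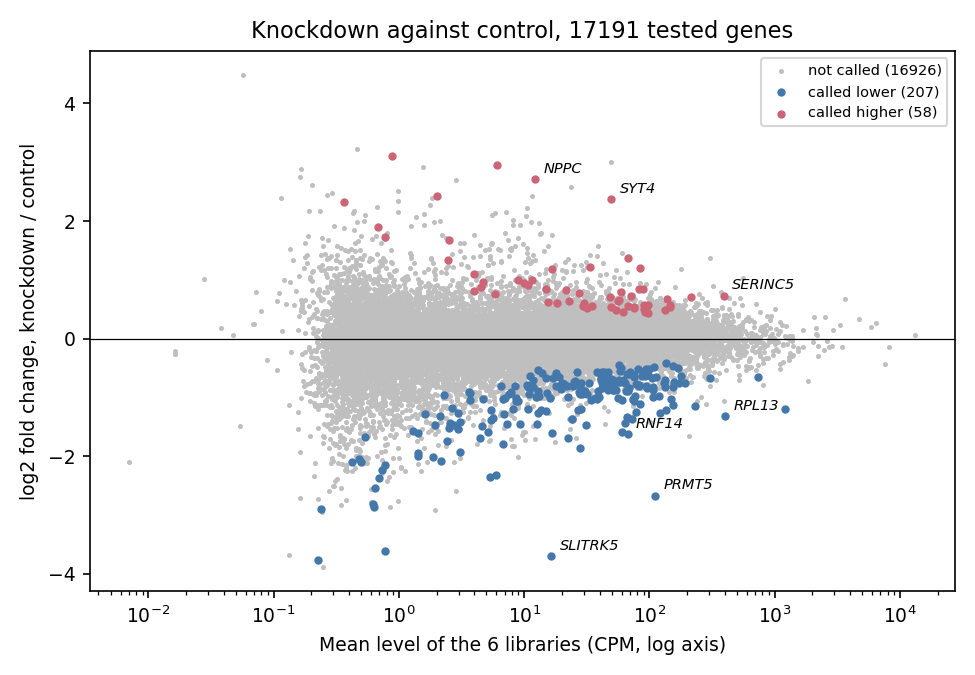
Each point is 1 of the 17191 tested genes, with its mean level over the 6 libraries (CPM, log axis) and its log2 fold change, knockdown over control. Genes called lower (207, blue) reach farther from 0 than genes called higher (58, red), and PRMT5 lies at -2.67.

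The genes that fell most had varied roles, and their roles were not tested for enrichment. SLITRK5 encodes a transmembrane protein that helps nerve cells to form synapses. It stood at 31.7, 30.1 and 30.2 CPM in controls and at 1.27, 3.00 and 2.70 CPM in knockdowns, the largest fall among the named genes (edgeR log2 fold change -3.70, SE 0.59, adjusted p = 0.0118). The knockdown libraries of SLITRK5 all lay more than an order of magnitude below the controls in pairs 1, 2 and 3 alike. PTER, a phosphotriesterase-related protein, fell from 43.5, 42.2 and 45.9 CPM to 14.1, 11.8 and 10.3 CPM (-1.87, SE 0.20, adjusted p = 0.00199). GDPD1, a glycerophosphodiesterase of the lysophospholipid pathway, fell from 34.2, 35.9 and 32.8 CPM to 12.4, 8.54 and 11.0 CPM (-1.69, SE 0.19, adjusted p = 0.00203). SLC18B1, the vesicular transporter of polyamines, fell from 92.0, 90.1 and 91.9 CPM to 37.4, 27.5 and 26.3 CPM (-1.59, SE 0.18, adjusted p = 0.00203). The genes with the largest changes were named from called genes without overlap between groups, so the gap between groups was set by that choice.

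RNF14, a ubiquitin ligase that also acts as a transcriptional coactivator, had the smallest p after PRMT5 among the genes named here. Its levels were 99.3, 104 and 101 CPM in controls and 30.3, 32.1 and 36.5 CPM in knockdowns (edgeR log2 fold change -1.62, SE 0.15, adjusted p = 0.000958). FAM3C, a secreted cytokine-like protein linked to epithelial to mesenchymal change, fell from 51.5, 43.0 and 42.6 CPM to 17.9, 14.2 and 17.2 CPM (-1.47, SE 0.15, adjusted p = 0.00150). SH3GLB1, an endophilin that bends membranes in autophagy and binds BAX, fell from 37.5, 34.1 and 33.4 CPM to 17.8, 11.8 and 11.0 CPM (-1.37, SE 0.19, adjusted p = 0.00724). RNF14, FAM3C and SH3GLB1 were named from called genes whose groups did not overlap, so the separation of their groups was set by that choice. FAM234B (-1.61), TMEM44 (-1.46), the long non-coding RNA RP4-568C11.4 (-1.44), KIAA0895 (-1.36) and TMEM167B (-1.34) also fell, with adjusted p-values from 0.00150 to 0.0445. Another gene covers 23.1% of the exon positions of TMEM167B.

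PSMB5, the chymotrypsin-like catalytic subunit of the proteasome, lies on chromosome 14 as PRMT5 does, at 23016543 to 23035230. It stood at 164, 180 and 166 CPM in controls and 68.8, 73.4 and 70.0 CPM in knockdowns (edgeR log2 fold change -1.27, SE 0.20, adjusted p = 0.0113). It was the 1 of 39 proteasome subunits that was called, beside 1.54% of all tested genes. The list had a median of -0.02 with 16 positive and 23 negative members. PSMD14, the lid subunit that removes ubiquitin, had -0.38 (adjusted p = 0.156, and 0.000955 with the block). RPL13, a protein of the large ribosomal subunit, had 449, 665 and 599 CPM in controls and 140, 240 and 305 CPM in knockdowns (-1.32, SE 0.26, adjusted p = 0.0333). Ribosomal protein genes have near-identical copies elsewhere in the genome, so the count of RPL13 is uncertain. MCCC2, a subunit of the carboxylase that breaks down leucine, fell from 254, 179 and 200 CPM to 117, 89.1 and 83.7 CPM (-1.13, SE 0.20, adjusted p = 0.0230). Its partner subunit MCCC1 had a log2 fold change of 0.58 (adjusted p = 0.154, and 0.000373 with the block). MCCC2 was the 1 of 26 genes of branched-chain amino acid breakdown called by edgeR, beside 1.54% of all tested genes. DESeq2 called 3 of the 26, beside 1034 of all 17191 tested genes.

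**Figure D2:**
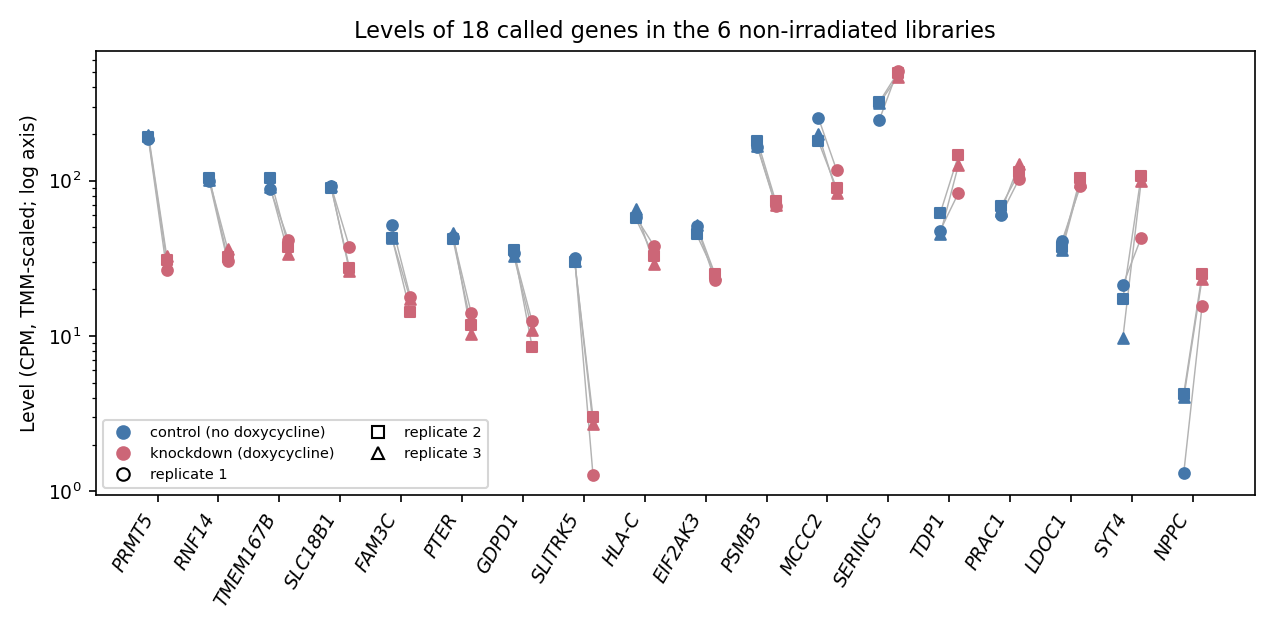
Levels (CPM, log axis) of 18 called genes in the 6 non-irradiated libraries, with controls in blue, knockdowns in red, a symbol for each replicate number and lines joining the libraries of a pair. PRMT5 drops from 186 to 198 CPM to 26.6 to 32.8 CPM. In each gene the groups are apart, which was a condition for naming the genes with the largest changes. Of all tested genes 31.1% had groups that did not overlap.

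Many of the genes that fell share a short word in their messenger RNA. The 7-base word TTCCCTA occurred in the annotated 3′ untranslated region of 61 of 186 called lower protein-coding genes (32.8%), against 1528 of all 12543 tested genes (12.18%) and 9 of 51 called higher genes (17.65%). The counts leave out PRMT5, which holds the word in its coding sequence, at position 1974 of the 2531 bases of ENST00000324366.12. The hairpin sequence is not given in the sources used here, so the word was not compared with it. The windows of 29 bases below are from PRMT5 and called lower genes described in the text, and are shown because they hold the word. They come from GENCODE 29 transcripts, run 5′ to 3′ on the strand of the messenger RNA, and have the word in capitals. Of the 15 genes named for the largest falls 6 hold it, and SLITRK5 and PTER, with the largest 2 falls, do not.
PRMT5: ttcccatcctcTTCCCTAttaagcagccc
RNF14: gtggattgtttTTCCCTAatcttccgtca
GDPD1: ttcatgatcatTTCCCTAagccatttcca
FAM3C: tctccgcacatTTCCCTAaaagtacaatg
SH3GLB1: agaaaaattccTTCCCTAtctcccaaaca
KIAA0895: tcttaaactatTTCCCTAaaatgtttcta
TMEM167B: atttcttgactTTCCCTAagcagataagc
MCCC2: gctggattagcTTCCCTActctatgctct
HLA-B: caacttcttacTTCCCTActgaaaataag
HLA-C: caacttcttacTTCCCTAatgaagttaag

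In GRCh38 the RNF14 window is chr5:141987815-141987843 on the plus strand and the GDPD1 window chr17:59273830-59273858 on the plus strand. FAM3C holds it at chr7:121350223-121350251 on the minus strand, SH3GLB1 at chr1:86746333-86746361 on the plus strand and TMEM167B at chr1:109096646-109096674 on the plus strand. The KIAA0895 window shown is chr7:36326574-36326602 on the minus strand, and both KIAA0895 and TMEM167B hold the word a second time in the same region. MCCC2 holds it at chr5:71658395-71658423 on the plus strand, and HLA-B and HLA-C at chr6:31353988-31354016 and chr6:31268865-31268893 on the minus strand. The windows of HLA-B and HLA-C are alike before the word, so these related genes are not separate examples of it. Each of these windows lies in 1 exon of a 3′ untranslated region. The PRMT5 window crosses an exon junction. Beyond the word the flanks differ: no flanking base is the same in all 10 windows.

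Genes with more copies of the word had lower fold changes. The median log2 fold change was 0.02 over 11015 genes without the word, -0.08 over 1316 genes with 1 copy and -0.12 over 212 genes with 2 or more. The share called lower was 1.135%, 3.799% and 5.189% in that order, and the share called higher was 0.381%, 0.532% and 0.943%. With the replicate block the shares called lower were 14.82%, 26.37% and 31.13%, and those called higher 17.49%, 12.54% and 6.13%. Genes with the word also had longer 3′ untranslated regions, with medians of 1177, 2828 and 4937 bases. Within each of 4 bins of length with like numbers of genes the called lower genes held the word more often than all tested genes: 4 of 24 (16.67%) against 1.75% in the shortest bin, then 9 of 40 (22.5%) against 6.29%, 20 of 63 (31.75%) against 13.05% and 28 of 59 (47.46%) against 27.65% in the longest. Of 16384 words of 7 bases, TTCCCTA ranked second by the difference in share (20.6 points, after AAAATGA with 22.4). By ratio it ranked first, at 2.69, of the 11086 words found in at least 5% of tested genes. The word was chosen with earlier results of these data known, so its ranks, shares and trend with copies are not separate support for it. These values are descriptions without a test, and a match to a word is not a binding site.

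**Figure D3:**
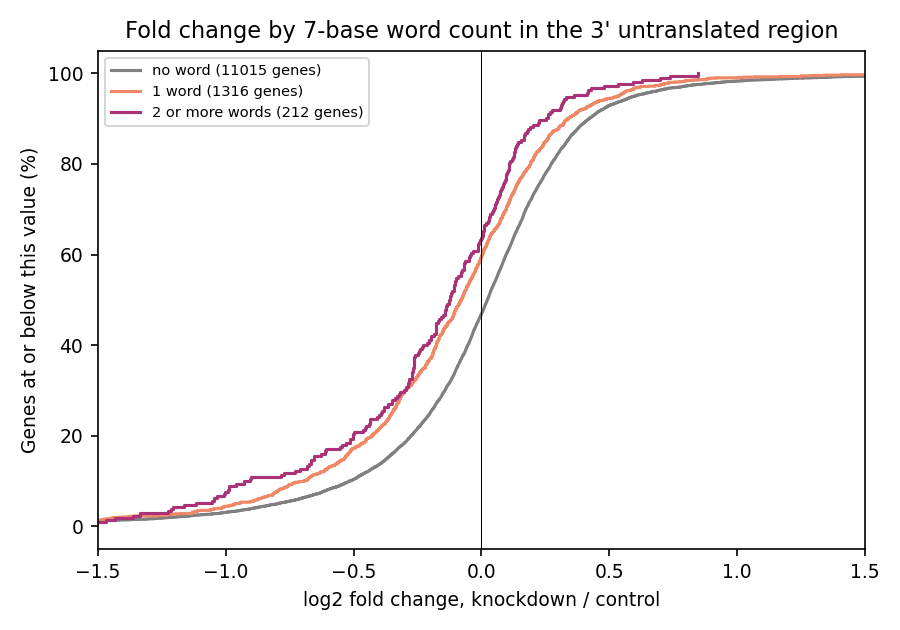
Cumulative share of genes (vertical axis, %) by log2 fold change, knockdown over control (horizontal axis), for genes with 0, 1 and 2 or more copies of the 7-base word in the 3′ untranslated region. The curves shift left with the number of copies, with medians of 0.02, -0.08 and -0.12.

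Of the 58 genes that rose, the 15 named ones also had varied roles. NPPC encodes C-type natriuretic peptide. It stood at 1.32, 4.26 and 4.02 CPM in controls and at 15.6, 25.0 and 23.4 CPM in knockdowns (edgeR log2 fold change 2.72, SE 0.53, adjusted p = 0.0324). SYT4, a synaptotagmin of secretory vesicles, stood at 21.2, 17.3 and 9.72 CPM in controls and 42.9, 107 and 99.0 CPM in knockdowns (2.37, SE 0.37, adjusted p = 0.0113, and 0.148 with the block in the 6 libraries alone). The knockdown library of pair 1 was the lowest of its group for both genes, and SYT4 had pair ratios of 1.01, 2.63 and 3.34. LDOC1, a small leucine zipper protein of the nucleus, stood at 40.7, 37.3 and 35.6 CPM in controls and 91.7, 104 and 98.4 CPM in knockdowns (1.37, SE 0.18, adjusted p = 0.00441). OTUD3, a deubiquitinase, rose from 18.5, 24.9 and 17.3 CPM to 49.9, 53.2 and 38.2 CPM (1.22, SE 0.17, adjusted p = 0.00724). TDP1, a repair enzyme that removes trapped topoisomerase I from DNA, had 47.7, 61.5 and 45.0 CPM in controls and 83.3, 146 and 126 CPM in knockdowns (1.20, SE 0.21, adjusted p = 0.0202). LDOC1 was the most even of these 5 genes across the libraries of a group.

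The other named genes that rose had smaller changes. MICAL2, which oxidises actin, rose by 0.79 (edgeR adjusted p = 0.0142), the motor protein MYO1E by 0.85 (adjusted p = 0.0334) and FARP2, an exchange factor for small GTPases, by 0.84 (adjusted p = 0.0119). SERINC5, a membrane protein that lowers the infectivity of retroviruses, rose from 246, 321 and 314 CPM to 508, 492 and 464 CPM (0.73, SE 0.12, adjusted p = 0.0119). PRAC1, a small nuclear protein made in prostate and hindgut, rose from 60.3, 68.4 and 63.7 CPM to 103, 113 and 129 CPM (0.84, SE 0.16, adjusted p = 0.0313). AMER1, a Wnt pathway regulator that binds APC, rose by 0.78 (adjusted p = 0.0151), CDR2L by 1.19, LRP5L by 0.99, the matrix protein gene SNED1 by 0.83 and the long non-coding RNA CTA-29F11.1 by 0.91. Another gene covers 37.6% of the exon positions of SNED1.

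KLK3, which encodes prostate-specific antigen and is induced by androgen, had a log2 fold change of 0.06 (edgeR adjusted p = 0.898). It was named for its role, after its values were seen. The pioneer transcription factor GATA2 had 0.58 (adjusted p = 0.0585), the chaperone HSP90AA1 0.37 (adjusted p = 0.152) and DDC, which makes dopamine and serotonin, -1.65 (adjusted p = 0.0646). DDC had 305, 352 and 281 CPM in controls and 121, 115 and 63.5 CPM in knockdowns, without overlap. GATA2, HSP90AA1 and DDC were called with the block (adjusted p = 0.000465, 0.00276 and 0.000110).

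Of 47 androgen-induced target genes 1 was called, beside 1.54% of all tested genes. PPFIBP2, a liprin, rose from 63.1, 62.1 and 59.2 CPM to 79.7, 86.9 and 98.4 CPM (edgeR log2 fold change 0.52, SE 0.11, adjusted p = 0.0394). The list split into 26 positive and 21 negative members (median 0.02), and the blocked model called 6 higher and 10 lower, beside 13.7% and 14.1% of all tested genes. The ubiquitin ligase gene HERC3 had 177, 117 and 145 CPM in controls and 66.8, 46.6 and 50.2 CPM in knockdowns (-1.42, adjusted p = 0.0695, and 1.58e-06 with the block). The kallikrein KLK4 had 0.49 (adjusted p = 0.224, and 0.000616 with the block). Among luminal markers the prostate homeobox gene HOXB13 had 0.42 (adjusted p = 0.279, and 0.00733 with the block), and the transporter gene SLC45A3 -0.68 (adjusted p = 0.344, and 8.58e-05 with the block). SLC45A3 did not overlap between groups, whereas HOXB13 did. Of the 12 luminal markers the blocked model called 1 higher, HOXB13, and 4 lower, beside the same 13.7% and 14.1%.

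The unfolded protein response list had 4 of 28 members called lower and 0 higher, beside 1.2% and 0.337% of all tested genes, and with the block 10 were lower and 0 higher, beside 14.1% and 13.7%. EIF2AK3, the PERK kinase that slows translation under stress, fell from 51.3, 45.1 and 51.8 CPM to 23.0, 25.2 and 25.2 CPM (edgeR log2 fold change -1.01, SE 0.15, adjusted p = 0.0102). CREB3L2, a membrane-bound transcription factor of the reticulum, fell from 69.1, 54.8 and 76.4 CPM to 41.8, 27.1 and 39.9 CPM (-0.88, SE 0.18, adjusted p = 0.0348). DNAJB9, a cochaperone of the chaperone BiP, fell by 0.79 (adjusted p = 0.0330), and SSR1, a subunit of the translocon-associated complex, by 0.63 (adjusted p = 0.0498). Each of the 4 genes had groups that did not overlap, which 31.1% of all tested genes had. The list as a whole was near 0: its median was -0.11 and 19 of 28 members were negative. By pair the list mean was -0.21, -0.19 and -0.19.

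Targets of ATF4, the transcription factor that acts downstream of PERK, had a median of -0.35, with 40 of 46 negative. ATF3, a stress-induced transcription factor, was the 1 member called, beside 1.54% of all tested genes. It fell from 92.2, 98.5 and 122 CPM to 46.9, 33.6 and 40.7 CPM (edgeR log2 fold change -1.37, SE 0.23, adjusted p = 0.0142). SESN2 (-0.80, adjusted p = 0.0736), TRIB3 (-0.998, adjusted p = 0.0895) and HERPUD1 (-0.62, adjusted p = 0.0896), all stress-induced, were separated between groups, as 31.1% of all tested genes were, but were not called with or without the block in the model of all 12 libraries. In the 6 libraries alone SESN2 (adjusted p = 0.0375) and HERPUD1 (0.0313) were called without the block, and HERPUD1 with it (0.0460). With the block over 12 libraries 4 members were lower and 0 higher, beside 14.1% and 13.7% of all tested genes. The fit of the 6 libraries without the block called 10 lower, beside 5.22% of the genes tested there. DESeq2 called 6 lower and limma-voom 1, beside 648 and 225 of all 17191 tested genes. By pair the mean of the targets was -0.11, -0.63 and -0.54. TRIB3 shows this spread, with 253, 334 and 441 CPM in controls and 230, 131 and 154 CPM in knockdowns.

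Heat shock chaperones lay higher, with 21 of 25 positive (median 0.22). HSPA14, a ribosome-bound member of the HSP70 family, rose from 44.3, 44.4 and 47.1 CPM to 62.2, 65.5 and 63.6 CPM (edgeR log2 fold change 0.50, SE 0.09, adjusted p = 0.0272) and was the 1 member called. Without the block 1.54% of all tested genes were called. The blocked model called 11 higher and 2 lower, beside 13.7% and 14.1% of all tested genes. The small heat shock protein HSPB1 had 0.95 (adjusted p = 0.145, and 0.00795 with the block). DNAJB4 (-0.73, adjusted p = 0.0608) and the mitochondrial chaperone HSPA9 (-0.50, adjusted p = 0.0723) were the 2 lower with the block.

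**Figure D4:**
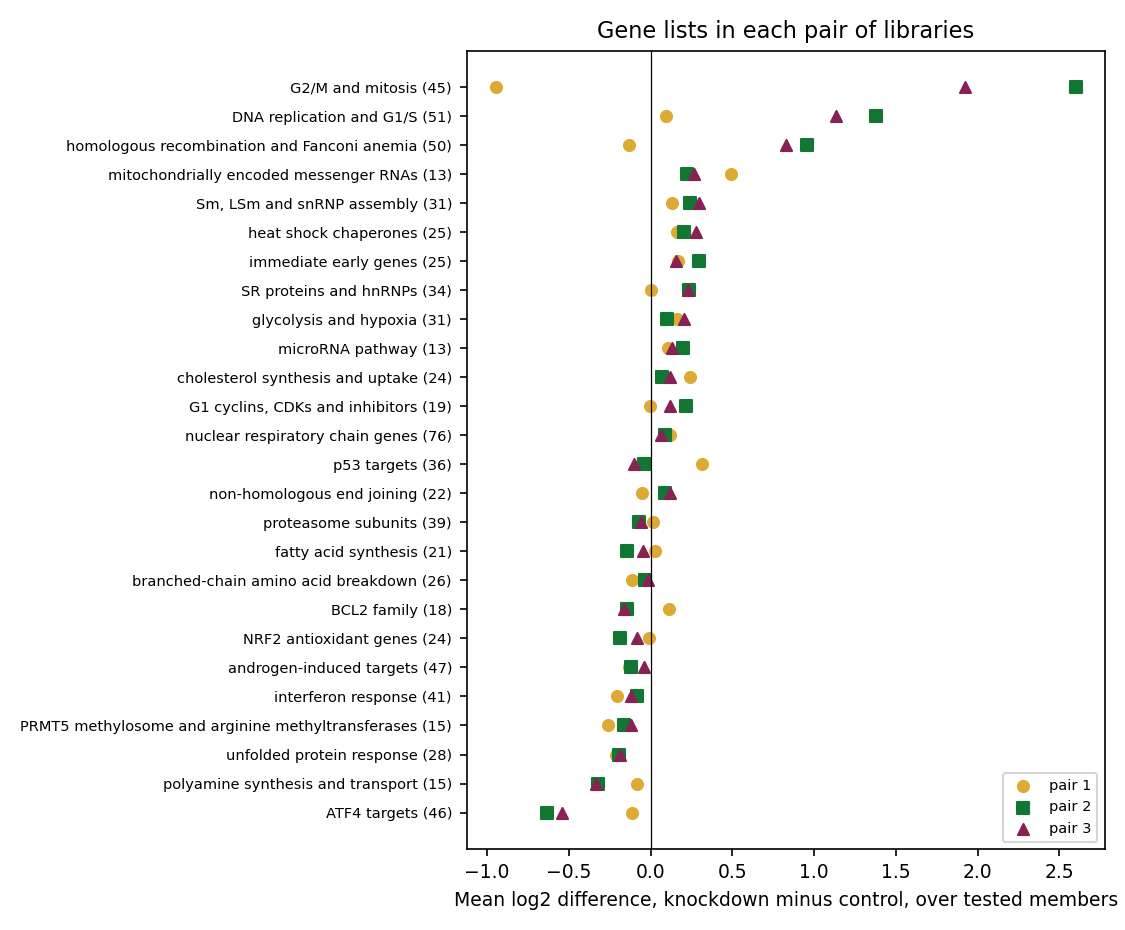
Mean log2 difference, knockdown minus control (horizontal axis), over the tested members of 26 gene lists, with a symbol per pair of libraries and the number of tested members in brackets. Cell cycle and recombination lists spread widely between pairs (G2/M -0.95, 2.60 and 1.93), whereas the unfolded protein response list has -0.21, -0.19 and -0.19.

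The cell cycle genes differed between pairs more than any other list. Replication and G1/S genes had 49 of 51 positive members (median 0.76). None was called by edgeR in the model without the block (14 at an unadjusted p under 0.05, where all tested genes had 17.4% in either direction). DESeq2 called 2, beside 1034 of all 17191 tested genes, and limma-voom 0. In contrast, 15 were called higher in a fit of the 6 non-irradiated libraries alone, beside 4.03% of the genes tested there, and 21 with the block, beside 13.7%. The groups were fully apart, with the knockdowns higher, for 29 of the 51 genes, beside 15.4% of all tested genes. Their summed level was 1445, 1266 and 1216 CPM in controls and 1564, 2663 and 2206 CPM in knockdowns. The groups did not overlap, but nearly all of the difference came from pairs 2 and 3. MCM2, a subunit of the replicative helicase, had 34.4, 32.5 and 30.6 CPM in controls and 52.3, 116 and 98.3 CPM in knockdowns (log2 fold change 1.46, adjusted p = 0.166, 0.0367 with the block, and 0.0964 with the block in the 6 libraries alone). RRM1, the large subunit of ribonucleotide reductase, had 0.67 (adjusted p = 0.147, and 0.0184 with the block), and GINS4, another helicase component, 1.46 (adjusted p = 0.131, and 0.0285 and 0.0991 in these 2 fits with the block). Other genes cover 23.6% of the exon positions of GINS4.

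G2/M and mitosis genes changed direction with the pair. Their mean log2 difference was -0.95 in pair 1, 2.60 in pair 2 and 1.93 in pair 3. No member was called by edgeR with or without the block, by DESeq2 or by limma-voom. At an unadjusted p under 0.05 edgeR had 7, all positive, beside 17.4% of all tested genes in either direction. The summed level was 1201, 387 and 468 CPM in controls and 737, 1385 and 1305 CPM in knockdowns, so control 1 lay near knockdowns 2 and 3. MKI67, the proliferation marker Ki-67, had 38.9, 4.93 and 11.6 CPM in controls and 25.97, 57.3 and 62.7 CPM in knockdowns (log2 fold change 1.42, edgeR adjusted p = 0.250). MKI67 was named after its values were seen. The kinase AURKB of the chromosomal passenger complex had 4.65, 0.801 and 1.25 CPM in controls and 4.30, 12.9 and 11.1 CPM in knockdowns, and the mitotic cyclin CCNB1 61.4, 28.1 and 30.0 against 52.6, 68.9 and 67.0 CPM. In both genes control 1 overlapped the knockdowns. The median of the list, 0.89 over all libraries, was 2.33 without pair 1, 0.26 without pair 2 and 0.42 without pair 3, and the replication median was 0.94, 0.52 and 0.71. Growth state was not recorded in the labels, and its part in these values was not tested.

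**Figure D5:**
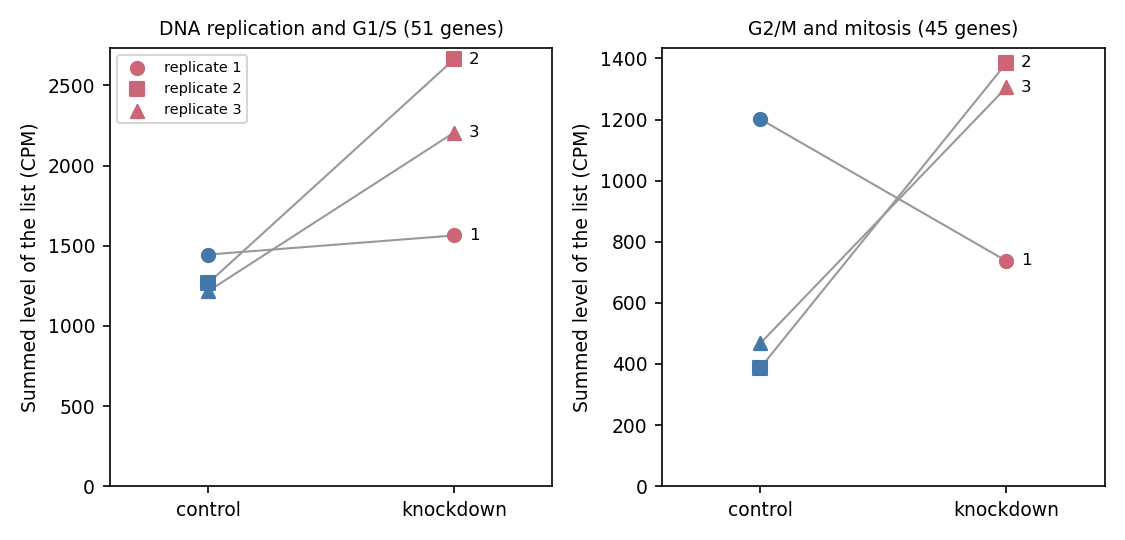
Summed level (CPM) of 51 DNA replication and G1/S genes (left) and 45 G2/M and mitosis genes (right) in controls and knockdowns, with lines joining the libraries of a pair. Pair 1 has the knockdown 737 CPM below the control 1201 CPM for G2/M genes, while pairs 2 and 3 have it above.

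Among G1 regulators E2F5, an E2F factor that acts mainly as a repressor, fell from 30.3, 28.96 and 24.6 CPM to 20.01, 14.3 and 13.8 CPM (edgeR log2 fold change -0.80, SE 0.18, adjusted p = 0.0499). Cyclin D1 (CCND1) had 232, 217 and 212 CPM in controls and 311, 300 and 286 CPM in knockdowns, and missed the threshold (0.44, adjusted p = 0.0840, and 0.000497 with the block). SKP2, which marks CDK inhibitors for destruction, had 0.60 (adjusted p = 0.120, and 0.000960 with the block), and the CDK inhibitor CDKN2B -1.54 from 2.26 CPM (adjusted p = 0.0534, and 0.00245 with the block). CCND1, SKP2 and CDKN2B had groups that did not overlap, which 31.1% of all tested genes had.

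The recombination and end joining lists held 1 call, beside 1.54% of all tested genes. SLX4, the scaffold of structure-specific nucleases, rose from 22.5, 22.8 and 26.05 CPM to 32.6, 35.3 and 41.0 CPM (edgeR log2 fold change 0.61, SE 0.13, adjusted p = 0.0415). Of the 50 tested genes of homologous recombination and the Fanconi anemia pathway 38 were positive (median 0.47), and the blocked model called 7 higher and 2 lower, beside 13.7% and 14.1% of all tested genes. By pair the list mean was -0.13, 0.96 and 0.83, so pair 1 differed from the others as it did for the cell cycle genes. BARD1, the partner of BRCA1, had 85.4, 65.6 and 75.2 CPM in controls and 85.5, 129 and 155 CPM in knockdowns (0.71, adjusted p = 0.131), and the nuclease-helicase DNA2 0.78 (adjusted p = 0.162, and 0.00356 with the block). Of 22 end joining genes edgeR called 0, DESeq2 1 and limma-voom 0, and 12 were positive (median 0.06). In edgeR 5 had an unadjusted p under 0.05, beside 17.4% of all tested genes. DESeq2 called 1034 of all 17191 tested genes. The blocked model called 6 higher and 2 lower of the end joining genes, beside the same 13.7% and 14.1%. The ligase LIG3 had 0.38 (adjusted p = 0.113) and the kinase PRKDC 0.39 (adjusted p = 0.235), and both were called with the block (0.00116 and 0.00200). The exons of LIG3 share 30.4% of their positions with another gene.

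Of 36 tested p53 targets edgeR called 0, DESeq2 3 and limma-voom 0, and 25 were positive (median 0.07). At an unadjusted p under 0.05 edgeR had 7 positive and 3 negative, beside 17.4% of all tested genes in either direction. DESeq2 called 1034 of all 17191 tested genes. The blocked model called 10 higher and 2 lower, beside 13.7% and 14.1% of all tested genes, and the edgeR fit of the 6 libraries alone 3 higher and 2 lower, beside 4.03% and 5.22% of the genes tested there. By pair the mean of the targets was 0.32, -0.04 and -0.10. BAX, which opens the outer mitochondrial membrane, had 31.4, 38.2 and 31.9 CPM in controls and 65.6, 53.01 and 52.9 CPM in knockdowns (log2 fold change 0.75, edgeR adjusted p = 0.104, and 0.000955 with the block). Other death genes of the BCL2 family pointed both ways. The BH3-only genes BMF and BCL2L11 had 0.67 and 0.37 (adjusted p = 0.138 and 0.130), and HRK -2.02 (adjusted p = 0.102). With the block all 3 were called (0.00518, 0.00259 and 0.000868).

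Splicing factors, the best-known substrates and targets of PRMT5, had no call in the edgeR model without the block or in limma-voom. DESeq2 called 1 higher and 1 lower, beside 386 and 648 of all 17191 tested genes. The edgeR fit of the 6 libraries alone called 3 genes of each list higher, beside 4.03% of the genes tested there. At an unadjusted p under 0.05 there were 2 Sm, LSm and assembly genes, both positive, and 6 SR protein and hnRNP genes, 5 of them positive. All tested genes had 17.4% at that p in either direction. Of 31 Sm, LSm and assembly genes 25 were positive (median 0.26), and the blocked model called 15 higher and 0 lower, beside 13.7% and 14.1% of all tested genes. GEMIN4, a component of the SMN complex that loads Sm proteins onto small nuclear RNA, had 56.3, 54.2 and 49.6 CPM in controls and 73.2, 81.3 and 76.2 CPM in knockdowns (log2 fold change 0.53, adjusted p = 0.193, and 0.00286 with the block). The Sm protein gene SNRPD3 had 0.43 (adjusted p = 0.300, and 0.00294 with the block), with 24.6% of its exon positions shared with another gene. Of 34 SR protein and hnRNP genes 29 were positive (median 0.13), and the blocked model called 10 higher and 1 lower, beside the same 13.7% and 14.1%. By pair the mean of these 34 genes was 0.0008, 0.24 and 0.23, so pair 1 did not share the rise. SRSF4 had 0.36 (adjusted p = 0.105), HNRNPF 0.50 (adjusted p = 0.155) and HNRNPH3 -0.34 (adjusted p = 0.124). These are gene totals, and splicing itself is not measured by them.

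The HLA class I genes HLA-B and HLA-C, which present peptides to T cells, were the 2 of 41 interferon response genes called, both lower. Among all tested genes 1.2% were called lower. HLA-C fell from 58.5, 57.1 and 66.0 CPM to 38.1, 32.6 and 29.1 CPM (edgeR log2 fold change -0.87, SE 0.13, adjusted p = 0.00783). HLA-B fell from 32.1, 39.2 and 42.4 CPM to 21.7, 14.6 and 12.7 CPM (-1.22, SE 0.22, adjusted p = 0.0233, and 0.0519 with the block in the 6 libraries alone). The HLA genes are near-identical copies of one another and vary between people, so their counts are uncertain. The list as a whole, with HLA-B and HLA-C, pointed both ways, with 18 positive and 23 negative (median -0.12). The blocked model called 4 higher and 11 lower, beside 13.7% and 14.1% of all tested genes. The median was 0.05 without control replicate 1 and 0.04 without knockdown replicate 3.

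Messenger RNAs of the mitochondrial genome had 12 of 13 positive (median 0.28), none called by edgeR (6 at an unadjusted p under 0.05, all positive) or limma-voom, 1 higher by DESeq2 and 8 higher with the block, beside 13.7% of all tested genes. MT-ATP6, a subunit of ATP synthase, had 2567, 3276 and 2633 CPM in controls and 5325, 4533 and 3694 CPM in knockdowns (log2 fold change 0.68, adjusted p = 0.0955, and 0.00104 with the block). Mitochondrial genes took 5.23%, 5.94% and 5.30% of all counts in controls and 6.11%, 6.19% and 5.98% in knockdowns. The groups did not overlap in that share. Of 76 nuclear respiratory chain genes 55 were positive (median 0.09). None was called by edgeR (5 at an unadjusted p under 0.05) or limma-voom, and 1 was lower by DESeq2. Under the block 16 were higher and 4 lower, beside 13.7% and 14.1% of all tested genes. Among all 17191 tested genes 17.4% had an unadjusted p under 0.05, and DESeq2 called 386 higher and 648 lower.

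Metabolic lists held few calls without the block, under which 13.7% of all tested genes were higher and 14.1% lower. Those named below without a call in edgeR had none in limma-voom either. Without the block edgeR called 1.54% of all 17191 tested genes, and 17.4% had an unadjusted p under 0.05. DESeq2 called 386 higher and 648 lower, and limma-voom 55 and 225. The edgeR fit of the 6 libraries alone called 4.03% higher and 5.22% lower of the genes tested there. SLC18B1 was the 1 of 15 polyamine genes called by edgeR, while limma-voom called 2, and DESeq2 and the edgeR fit of the 6 libraries alone 3, all lower. Next came ARG2, a mitochondrial arginase, at -1.11 (edgeR adjusted p = 0.0536, and 0.0102 with the block). Other genes cover 37.4% of the exon positions of ARG2, so part of its count is uncertain. Cholesterol genes had 21 of 24 positive (median 0.16) and no call by edgeR (2 at an unadjusted p under 0.05) or DESeq2, with 7 higher and 2 lower under the block. Fatty acid synthesis genes had 14 of 21 negative (median -0.09) and no call by edgeR (2 at an unadjusted p under 0.05) or DESeq2, with 4 higher and 7 lower under the block. Glycolysis and hypoxia genes had 22 of 31 positive (median 0.14), no call by edgeR (6 at an unadjusted p under 0.05) and 2 higher by DESeq2, with 11 higher and 3 lower under the block, among them EGLN3, an oxygen-sensing hydroxylase (0.91, adjusted p = 0.0681, and 0.00130 with the block). Of 24 NRF2 antioxidant genes edgeR called none (2 at an unadjusted p under 0.05) and DESeq2 1, and GCLM, a subunit of the enzyme that starts glutathione synthesis, had -0.61 (adjusted p = 0.0677, and 0.000110 with the block). Of 13 genes of the microRNA pathway edgeR called none (4 at an unadjusted p under 0.05) and DESeq2 1, and the blocked model called 5 higher and 0 lower. DICER1, which cuts microRNA precursors, had 118, 106 and 134 CPM in controls and 184, 167 and 187 CPM in knockdowns (0.59, adjusted p = 0.0773, and 0.000105 with the block).

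The immediate early genes, transcription factors switched on within minutes of a stimulus, had 18 of 25 positive (median 0.41). ATF3, which this list shares with the ATF4 targets, was its 1 call, beside 1.54% of all tested genes. The blocked model called 10 higher and 4 lower, beside 13.7% and 14.1% of all tested genes. The nuclear receptor gene NR4A1 had 8.36, 8.81 and 10.0 CPM in controls and 15.1, 16.4 and 18.6 CPM in knockdowns (log2 fold change 0.88, edgeR adjusted p = 0.103, and 0.000847 with the block).

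Neuroendocrine markers moved in opposite directions, and the list has SYT4 and DDC as described above. The summed level of the list was 355 to 452 CPM in controls and 235 to 319 CPM in knockdowns, and CHGA, INSM1, NEUROD1 and SCGN had no count. Basal epithelial markers summed to 12.9 to 27.9 CPM in controls and 6.52 to 20.9 CPM in knockdowns, fibroblast markers to 17.0 to 36.7 and 19.8 to 34.4 CPM, and leukocyte markers to 48.6 to 74.4 and 69.6 to 123 CPM, nearly all of it LCP1. SYT4 was the 1 marker called, beside 1.54% of all tested genes. With the block DDC and the basal marker DST were called lower, and ENO2, COL3A1 and LCP1 higher. The part of other cell types in the results was not tested.

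In the comparison made after 2 Gy, all 265 genes had the same sign. The genes were chosen on the non-irradiated contrast, and a choice of that kind favours larger values in the contrast it was made on. The 207 lower genes had a median of -0.63 after irradiation and 48 of them were called, and the 58 higher genes had a median of 0.44 and 1 of them was called (OTUD3, 0.95). Over all tested genes 0.291% were called lower and 0.00582% higher. RNF14 had -1.37, SLITRK5 -3.80, PTER -1.59, HLA-B -1.23 and MCCC2 -1.40 after irradiation, against -1.62, -3.70, -1.87, -1.22 and -1.13 without it. SYT4 had 1.16 against 2.37, and ATF3 -0.67 against -1.37. The test of the difference between both effects called 0 genes in edgeR, 1 in DESeq2 and 0 in limma-voom. At an unadjusted p under 0.05 edgeR had 350 of the 17191 tested genes, a share below 0.05. The irradiated libraries came from a separate deposited table, so irradiation cannot be told apart from other differences between the tables.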

How the data were processed

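Polyadenylated RNA was sequenced, per the labels' protocols. The deposited values are raw counts of reads per gene, in the layout of featureCounts per the file headers, for 63299 genes in 2 tables of 6 libraries. GRCh38, STAR 2.5, Subread 1.5.3 with featureCounts, and edgeR 3.20.8 are named in the submitters' processing notes. How strand and multi-mapping reads were handled, and which annotation release was used, is not stated there. Genes that overlap, lie antisense or have near-identical copies therefore have uncertain counts. No line named anything but a gene.

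From the counts, 1 model over all 12 libraries with a mean per group was fitted with edgeR 4.0.16 in R 4.3.3 (robust quasi-likelihood, TMM scaling, filterByExpr with a minimum count of 10 and total of 15). It left 17191 genes and 8 residual degrees of freedom. A call needs a p, adjusted by Benjamini-Hochberg over all tested genes, under 0.05. Adjusted p-values are from edgeR unless another tool is named. The non-irradiated contrast is knockdown minus control. The fit was also run on simulated data with means and spread taken from the replicate block model, and no result of that run is used here. Alternatives were DESeq2 1.42.0, limma-voom (limma 3.58.1), other scaling, no filter, the 6 libraries alone, a replicate block and libraries left out.

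The labels give both groups the replicate numbers 1 to 3 and do not say what they share. Deviations from the group means, over genes, correlated at 0.23, 0.25 and 0.30 between libraries of the same number and at -0.18 to -0.07 between others, so the numbers were taken as pairs. The model that defines a call leaves this pairing out. Only the pair values and the fits with the replicate block use it, so a gene not called may still differ within pairs. Pair values are log2 CPM differences (prior count 2).

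Named genes are PRMT5, the 15 largest changes each way among called coding or long non-coding genes (mean over the 6 libraries from 10 CPM, named by symbol, groups not overlapping), and up to 4 members of each of 32 lists with the smallest p. Lists, members and the word TTCCCTA were chosen with earlier results of these data known. Lists are described by counts and medians without a test. Some genes and 1 list are not reported here. The word was searched on the transcript strand in GENCODE 29 (57492 identifiers, or 90.8%, matched), in the 3′ untranslated region of at least 50 bases of 1 transcript per gene.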

Additional observations from a re-analysis of the deposited data

Results flagged for a closer look

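The mean of the 51 replication and G1/S genes was above 0 in every non-irradiated pair (0.10, 1.38 and 1.13) and below 0 in every irradiated pair (-0.64, -0.17 and -0.08). The mean over the 3 non-irradiated pairs was 0.868. This was noted because all pairs of both comparisons point opposite ways. The difference was not tested for the list, and no member passed the test of the difference between both effects.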

How the results depend on the processing

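The number of genes called without irradiation depended on the fit. With the 265 (58 higher, 207 lower) as the reference, DESeq2 called 1034 (386 and 648), the 6 non-irradiated libraries alone 1486 (647 and 839), the replicate block 4776 (2349 and 2427) and the block in those 6 libraries 3622 (1754 and 1868). Other scaling, no filter and limma-voom gave 253 to 318. Leaving out 1 library, or a whole pair (added after the data were seen), gave 1 to 341 genes (0 to 71 higher, 1 to 271 lower). With the replicate block and without pair 1, 2 and 3 there were 5234, 2663 and 2335 (higher 2561, 1310 and 1109; lower 2673, 1353 and 1226). The difference between both effects called 0 genes, 1 in DESeq2, 0 to 47 without a library or pair, and 712, 0 and 1 with the block and without pair 1, 2 and 3. The cause of these shifts was not tested.

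PRMT5 stayed between -2.74 and -2.59 in all fits. The replicate block kept all 41 other named calls and added 83 of the 102 uncalled named genes; it changed no other call of a named gene. SYT4 (adjusted p = 0.148) and HLA-B (0.0519) lost their call with the block in 6 libraries alone. Among the named genes, signs reversed with libraries left out for 3 low, uncalled markers: ITGB4 (-0.077 to 0.402), KRT14 (-0.240 to 0.181) and LUM (-1.179 to 0.321). Of 544 list medians under alternatives 490 differed from the main median by less than the standard deviation of the list's 3 pair means. Lists that vary most between pairs meet this rule most easily, so it does not show that their medians are stable. With 3 libraries a group, 14801939 counts in the shallowest and an unrecorded source of the libraries, precision was lowest for genes of low count.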
